A study of Mus musculus with 6 samples.

Results

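PGC-1 coactivators, PPAR and estrogen-related receptors and the mitochondrial biogenesis factors Nrf1 and Tfam were examined in mouse soleus by expression array. The rows of the scanner table named for these regulators were taken, 10 of 34492 rows in all. They were PPARGC1A, PPARGC1B, PPARA, PPARD, PPARG, ESRRA, ESRRB, ESRRG, NRF1 and TFAM, written below as mouse gene symbols. RNA was taken from the whole soleus, a calf muscle with many slow fibres, of male mice aged 11 months. The Coco/KO group lacked the skeletal α-actin gene and made cardiac actin instead, according to the series title, and the Wildtype group had neither change. Both groups had the strain designation CBB6F1xFVB/n. Each group held 3 RNA samples, each a pool from 2 muscles of different mice, and 1 Illumina beadchip carried all 6. The error behind each p-value is thus that between pools of muscles. Which promoter drives the cardiac actin was not given in the labels.

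PGC-1α (Ppargc1a) and PGC-1β (Ppargc1b) are transcriptional coactivators that bind no DNA of their own and act through factors such as the PPARs, the estrogen-related receptors (ERRs) and NRF1. PPARs form dimers with retinoid X receptors and switch on genes of fatty acid uptake and oxidation, and ERRs act on genes of the citrate cycle and the respiratory chain. NRF1 acts on nuclear genes for mitochondria, among them Tfam, whose product packages and transcribes mitochondrial DNA. In skeletal muscle PGC-1α is known for its induction by contraction and fasting and for its part in slow, oxidative fibres.

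The sequence just before the start site was searched for short motifs of factors known to act on genes for mitochondria, and the member windows that hold one are shown. RefSeq promoters of build GRCm38.p6 were searched for 9 of the 10 members, in 16 windows of the last 100 bases before an annotated start. The member search did not cover every chromosome, and Ppargc1b had no window in it. The shares over all windows given below had no such exclusion. Searched on both strands were the NRF1 core GCGCATGC, the GABP motif CCGGAAGT, the cyclic AMP element core TGACGT and the ERR element AAGGTCA. Of all 32851 promoter windows of this length, 1.49% held the NRF1 core, 2.05% the GABP motif, 4.09% the cyclic AMP core and 1.49% the ERR element. A motif was found in 4 of the 16 member windows. The windows are written 5′ to 3′ on the gene's strand with the matched letters in capitals. The Ppargc1a window (chr5:51567726-51567825, minus strand) holds the cyclic AMP core as its reverse complement, the Tfam window (chr10:71238045-71238144, minus strand) the GABP motif, and the Ppara window (chr15:85735676-85735775, plus strand) and the Esrra window (chr19:6921809-6921908, minus strand) the NRF1 core, in Ppara as 2 overlapping matches on opposite strands.
Ppargc1a: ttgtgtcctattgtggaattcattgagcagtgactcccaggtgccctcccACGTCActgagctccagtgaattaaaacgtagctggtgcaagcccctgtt
Tfam: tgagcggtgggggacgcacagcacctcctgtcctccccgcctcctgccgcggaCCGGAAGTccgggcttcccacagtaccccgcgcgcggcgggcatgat
Ppara: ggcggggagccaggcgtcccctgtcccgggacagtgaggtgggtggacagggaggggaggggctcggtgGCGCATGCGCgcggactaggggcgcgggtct
Esrra: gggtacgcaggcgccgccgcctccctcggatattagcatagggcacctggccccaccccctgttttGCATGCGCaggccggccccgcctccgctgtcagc
The letters describe these windows and are no measure of binding.

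Between 33.6% and 37.9% of the rows were detected on an array, at a detection p under 0.05 against negative control beads. Tests were run on the 12611 rows with detection on 3 or more of the 6 arrays. Acta1, the knocked-out actin, fell by 4.59 on the log2 scale in Coco/KO muscle (SE 0.20, n = 3 per group, limma adjusted p = 2.96e-05), and cardiac actin, Actc1, rose by 2.44 (SE 0.31, adjusted p = 0.0298). Markers of muscle were present throughout, with all 6 general muscle markers and all 7 slow fibre markers detected. The Coco/KO 1 array stood apart on the first principal component, with a score of 34.4 against -15.5 to 5.48 on the others, and values that depend on it are given without it as well. Over the 12611 rows, 18 (0.143%) passed an adjusted p of 0.05, 8 of them higher (0.0634%) and 10 lower (0.0793%) in Coco/KO.

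None of the regulators separated the genotypes. Of the 10 members, 7 were tested, and 0 of these 7 passed the threshold in limma, where 0.143% of all tested rows did (0.0634% higher and 0.0793% lower). At an unadjusted p under 0.05 there were also 0 of 7, beside 8.19% of all rows. The Coco/KO mean was lower in 4 of the 7 and higher in 3, beside 50.1% of all rows lower. The arrays of the genotypes overlapped in all 10 members, whereas 12.7% of tested rows had no overlap. The plot of values by array shows the members side by side.

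**Figure D1:**
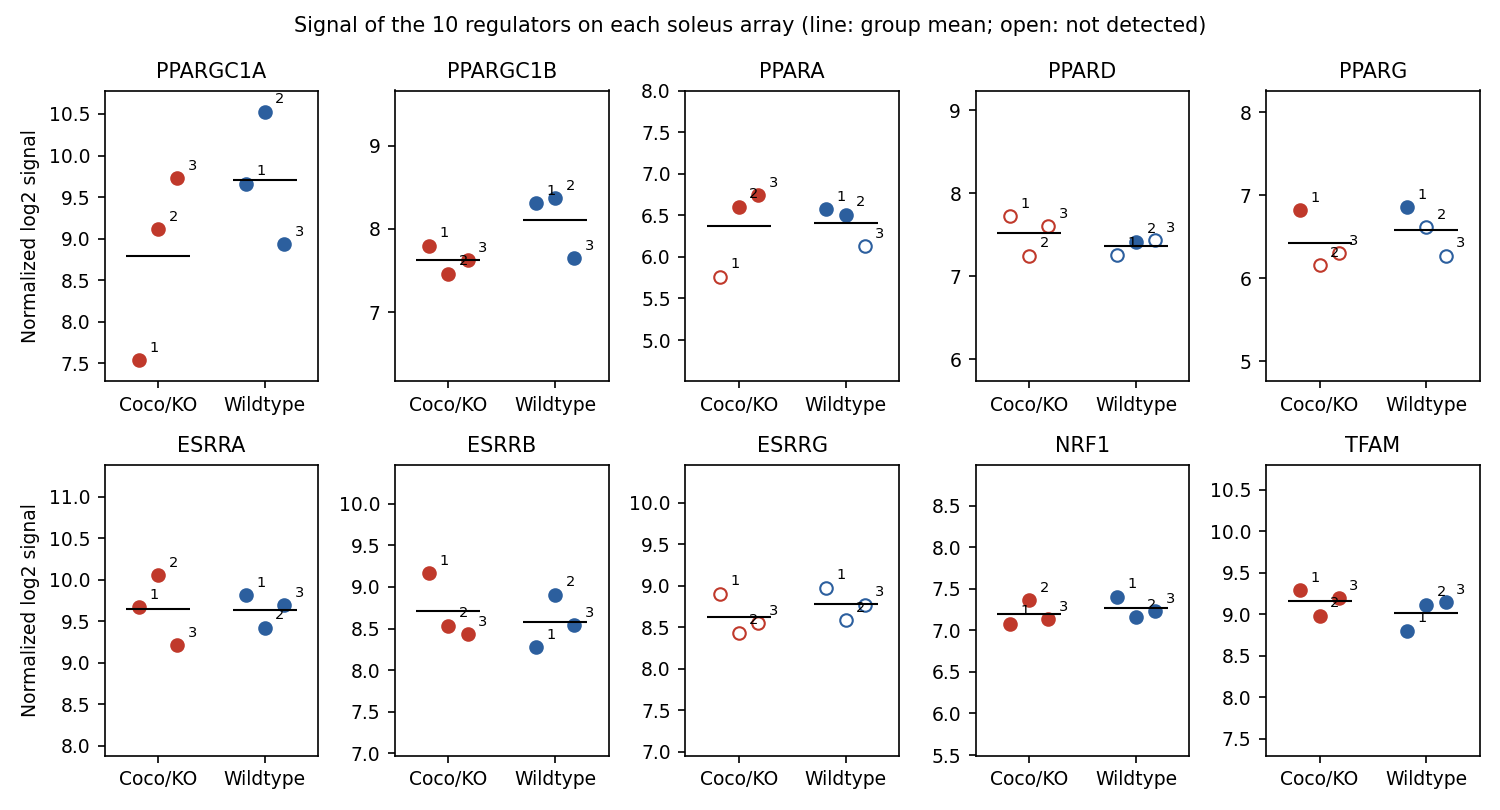
Normalized log2 signal (vertical axis) of each regulator on the 3 Coco/KO arrays (red, left) and the 3 Wildtype arrays (blue, right). Numbers are replicate numbers, lines are group means, open circles are arrays on which the row was not detected, and every panel spans the same log2 range. Ppargc1a has the widest scatter, from 7.54 on Coco/KO 1 to 10.53 on Wildtype 2, and the groups overlap in every panel.

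The coactivators had the largest differences of the 7 tested members, both with a lower Coco/KO mean. Ppargc1a had a signal of 127.8, 368.1 and 1011.7 in Coco/KO pools 1, 2 and 3, against 598.4, 1698.3 and 435.7 in Wildtype pools 1, 2 and 3. The highest array, Wildtype 2, lay 13.3-fold above the lowest, Coco/KO 1, and the Coco/KO 3 pool lay above 2 of the 3 Wildtype pools. On the normalized log2 scale Ppargc1a averaged 8.79 ± 1.13 in Coco/KO and 9.71 ± 0.80 in Wildtype muscle (SD, n = 3 each). The log2 difference was -0.91 (SE 0.56, 95% interval -2.19 to 0.36, limma adjusted p = 0.748). An exact permutation test (two-sided) gave p = 0.5, where 0.1 is the smallest value that 3 arrays against 3 allow. Without the Coco/KO 1 array the difference was -0.28. It was -0.50 without Wildtype 2, and -1.37 without Coco/KO 3.

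The scatter of Ppargc1a between pools of one genotype was among the widest on the array. Its within-group SD was 0.98 on the log2 scale, larger than in 99.6% of the 12611 tested rows, whose median SD was 0.22. Under the other scalings and backgrounds this share lay between 99.5% and 99.7%, and without the Coco/KO 1 array it was 99.2%. Each array value rests on 28 to 44 beads, and the standard error from the beads was 13.2 to 92.5 signal units. The SD between pools was 457 signal units in Coco/KO and 687 in Wildtype. A second row, under a clone name that RefSeq lists as a synonym of Ppargc1a, was detected on 0 of 6 arrays, with signals between -8.1 and 7.8, and carries no information on these differences.

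Ppargc1b, the paralog of Ppargc1a, had a signal of 167.7, 86.9 and 177.5 in Coco/KO pools, against 213.8, 326.4 and 143.1 in Wildtype pools. Wildtype 1 and 2 were above all Coco/KO arrays, while Wildtype 3 lay among them. It averaged 7.63 ± 0.17 in Coco/KO and 8.11 ± 0.40 in Wildtype muscle on the log2 scale (SD, n = 3 each). The log2 difference of -0.48 (SE 0.21, 95% interval -0.97 to 0.0082) had the lowest p of the tested members (limma, unadjusted p = 0.0532, adjusted p = 0.618). By exact permutation (two-sided) p was 0.2. With 1 array left out the difference lay between -0.71 and -0.35, lower in Coco/KO each time. It was -0.17 with modelled background. In the fit without a filter, which pools the spread over all 34492 rows, its unadjusted p was 0.0387 and its limma adjusted p 0.743.

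**Figure D2:**
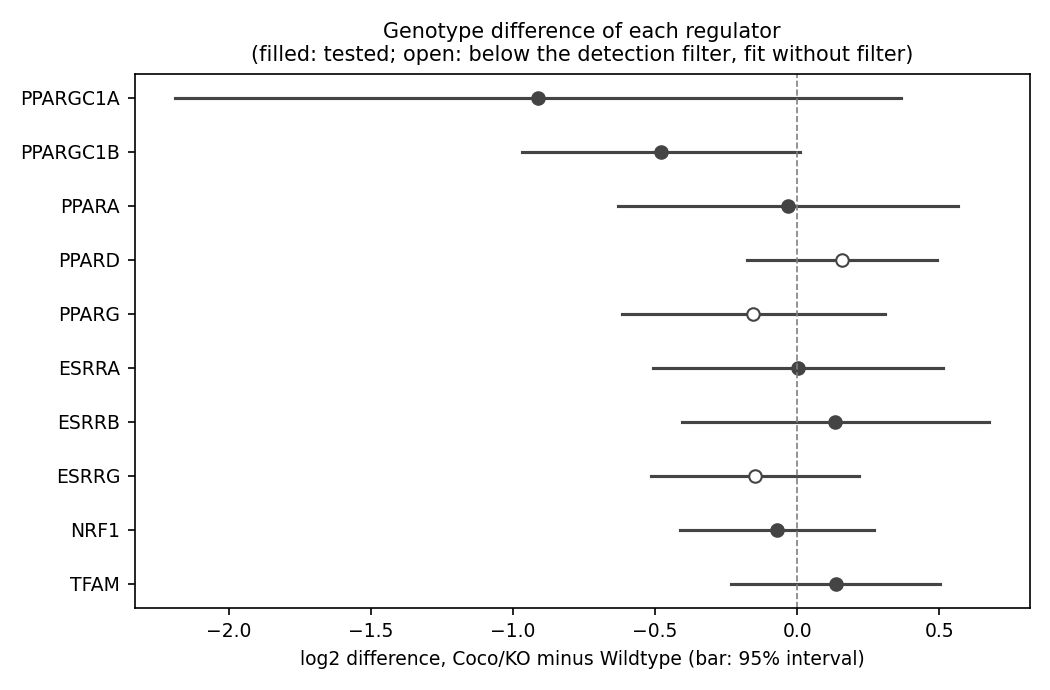
Log2 difference between Coco/KO and Wildtype muscle (horizontal axis) with its 95% interval for each regulator. Filled points were tested, and open points are rows below the detection filter, taken from the fit without a filter. The interval of every tested member includes 0, and that of Ppargc1a is the widest, from -2.19 to 0.36.

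Among the PPARs, the receptors for fatty acids and their derivatives, the signal was low or the detection incomplete. Ppara, the isoform best known for fatty acid oxidation in liver and muscle, had a signal of -4.9, 31.0 and 59.8 in Coco/KO, against 32.6, 36.2 and 12.5 in Wildtype. It was detected on 2 of 3 arrays in each group, and the highest and the lowest array were both Coco/KO. Its log2 difference was -0.03 (SE 0.26, 95% interval -0.63 to 0.56, limma adjusted p = 0.996), and without the Coco/KO 1 array it turned to 0.27.

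Ppard, the isoform prominent in oxidative muscle, had a signal of 155.3, 69.4 and 173.5 in Coco/KO, against 80.6, 133.6 and 116.5 in Wildtype. The highest values were both in Coco/KO and so was the lowest. The Ppard row was detected on 0 of 3 Coco/KO arrays and 1 of 3 Wildtype arrays and was not tested. In the fit without a filter, where 0.0609% of 34492 rows passed and Ppard, Pparg and Esrrg did not, its log2 difference was 0.16 (95% interval -0.18 to 0.49, limma adjusted p = 0.935).

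Pparg, the master regulator of fat cell formation, had a signal of 50.7, 11.2 and 23.3 in Coco/KO, against 49.9, 44.3 and 20.0 in Wildtype, low on all arrays. It was detected on 1 array of each group and was not tested. Without a filter its log2 difference was -0.15 (95% interval -0.62 to 0.31, limma adjusted p = 0.962). Pparg therefore showed no separation of the groups at this signal, and any log2 difference inside that interval is compatible with these values. The constant of 58.7 added to each intensity shrinks the log2 differences of rows as dim as Pparg.

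The ERRs are orphan receptors that take PGC-1 as a protein partner in place of a ligand. Esrra, ERRα, had a signal of 800.7, 774.5 and 679.8 in Coco/KO, against 672.5, 757.5 and 768.6 in Wildtype, a 1.19-fold range over all 6 arrays. Its log2 mean was 9.65 ± 0.42 in Coco/KO and 9.64 ± 0.20 in Wildtype muscle (SD, n = 3 each). The difference was 0.0038 (SE 0.22, 95% interval -0.51 to 0.51, limma adjusted p = 0.999), and -0.01 without Coco/KO 1. The within-group SD of Esrra was 0.33 after quantile normalization, larger than in 80.1% of tested rows. It was 0.33 with cyclic loess, 0.31 with an offset of 50 and 0.39 with modelled background. Median scaling alone gave a small SD, 0.12, larger than in 10.3% of tested rows.

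Esrrb, ERRβ, had a signal of 532.8, 229.3 and 364.6 in Coco/KO, against 208.2, 505.5 and 317.3 in Wildtype. Each group held 1 high array, Coco/KO 1 and Wildtype 2, and the others overlapped. The log2 difference was 0.13 (SE 0.24, 95% interval -0.41 to 0.67, limma adjusted p = 0.955), and it turned to -0.09 without Coco/KO 1 and to -0.02 without Wildtype 1.

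Esrrg, ERRγ, the isoform linked to oxidative fibres and vascular supply in mice, had a signal of 439.4, 210.2 and 402.5 in Coco/KO, against 367.2, 395.3 and 379.7 in Wildtype. The Wildtype signals lay within the range of the Coco/KO signals, while after normalization Wildtype 1 was the highest array at a log2 value of 8.98, and the groups still overlapped. Despite this signal the Esrrg row had detection scores between 0.828 and 0.917, a score being 1 minus the detection p, and was called detected on 0 of 6 arrays. Such rows were not rare, as 459 to 710 rows per array had a signal above 100 without being detected. The authors' value table lists 46632 probes against 34492 rows in the scanner table, and whether the Esrrg and Ppard rows combine several probes was not tested. In the fit without a filter the log2 difference of Esrrg was -0.15 (95% interval -0.51 to 0.22, limma adjusted p = 0.948).

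The biogenesis factors had the narrowest intervals of the tested members. Nrf1, a transcription factor for nuclear genes of mitochondria, had a signal of 73.5, 78.5 and 104.0 in Coco/KO, against 94.5, 100.6 and 94.4 in Wildtype. Coco/KO arrays had both the lowest and the highest signal, while after normalization the highest was Wildtype 1 at a log2 value of 7.40. The log2 difference of Nrf1 was -0.07 (SE 0.15, 95% interval -0.41 to 0.27, limma adjusted p = 0.967), and it was -0.01 without Coco/KO 1.

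Tfam had a signal of 595.6, 329.9 and 669.7 in Coco/KO, against 315.0, 597.3 and 512.9 in Wildtype. The low values were those of Coco/KO 2 and Wildtype 1, the arrays with the lowest mean signal over all rows (330.2 and 332.0, against 402.9 to 470.2 on the others), and after quantile normalization all 6 lay between 8.80 and 9.29. The log2 difference of Tfam was 0.14 (SE 0.16, 95% interval -0.23 to 0.50, limma adjusted p = 0.925), and it was 0.07 without Coco/KO 1. On the scale with 58.7 added to each signal, these intervals span folds of 0.752 to 1.21 for Nrf1 and 0.852 to 1.42 for Tfam. The added constant makes the folds of dim rows such as Nrf1 smaller than those of the signal itself. Changes within these intervals on that scale are compatible with the values of 3 arrays per group, and the intervals are no detection limit.

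**Figure D3:**
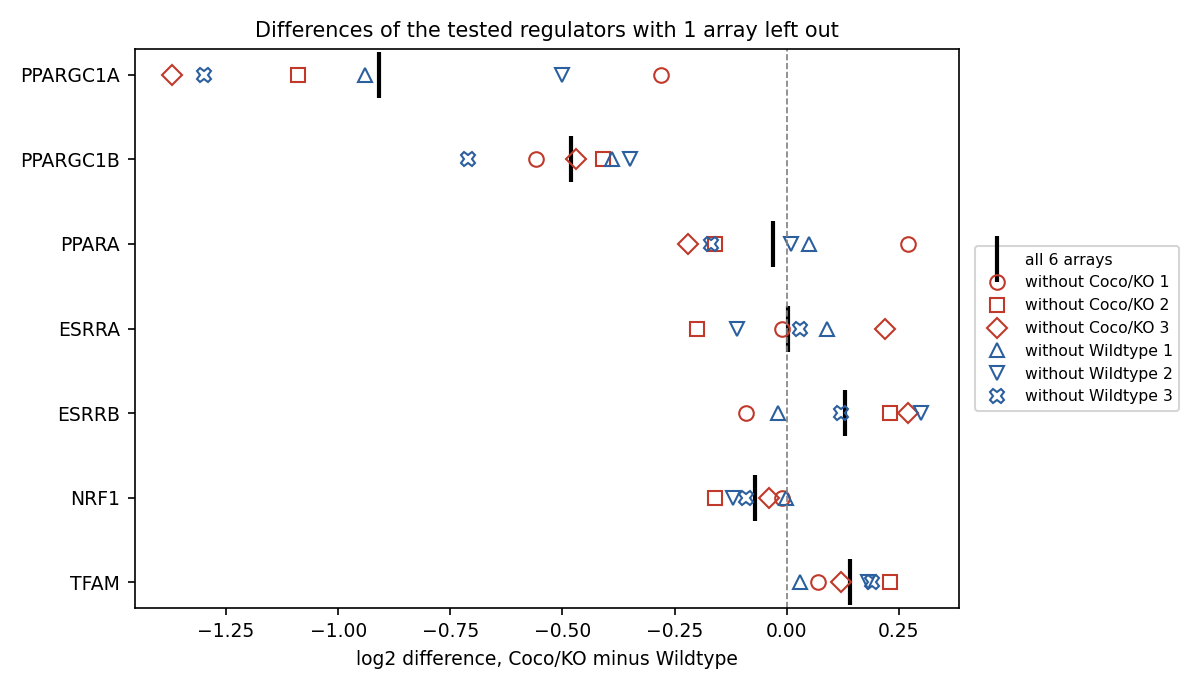
Log2 difference between Coco/KO and Wildtype muscle (horizontal axis) of the 7 tested regulators over all 6 arrays (black bar) and with each array left out (symbols, red for a Coco/KO array and blue for a Wildtype array). Ppargc1a moves between -1.37 and -0.28, and Ppara, Esrra and Esrrb have values on both sides of 0.

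Genes with array profiles most like that of Ppargc1a were sought among 8718 other rows detected on all 6 arrays, by the root mean square difference of log2 values after each gene's mean was subtracted. The nearest named genes were Adipoq, the fat cell hormone adiponectin (0.33), Prkaa2, the catalytic α2 subunit of the energy sensor AMPK (0.35), and Tbc1d20, a GTPase-activating protein (0.37), with 1 clone-named row passed over. All 3 were lowest on the Coco/KO 1 array, as Ppargc1a was. Prkaa2 had log2 values of 7.55, 9.40 and 9.49 in Coco/KO, against 9.89, 10.16 and 9.61 in Wildtype, with no overlap of the groups, and a log2 difference of -1.07 (SE 0.46, limma adjusted p = 0.602). Without Coco/KO 1 it was -0.44. Adipoq had log2 values of 10.32, 11.84 and 11.62 in Coco/KO, against 12.03, 13.24 and 11.74 in Wildtype, and like Ppargc1a it was highest on Wildtype 2.

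For Ppargc1b the nearest were Myom2 of the sarcomeric M-band (0.089), the forkhead factor Foxj2 (0.092) and Grina, a membrane protein (0.096). In all 3, Wildtype 1 and 2 were the highest arrays. The 6 points share their chip, and such likeness among 6 arrays is a description of these pools.

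**Figure D4:**
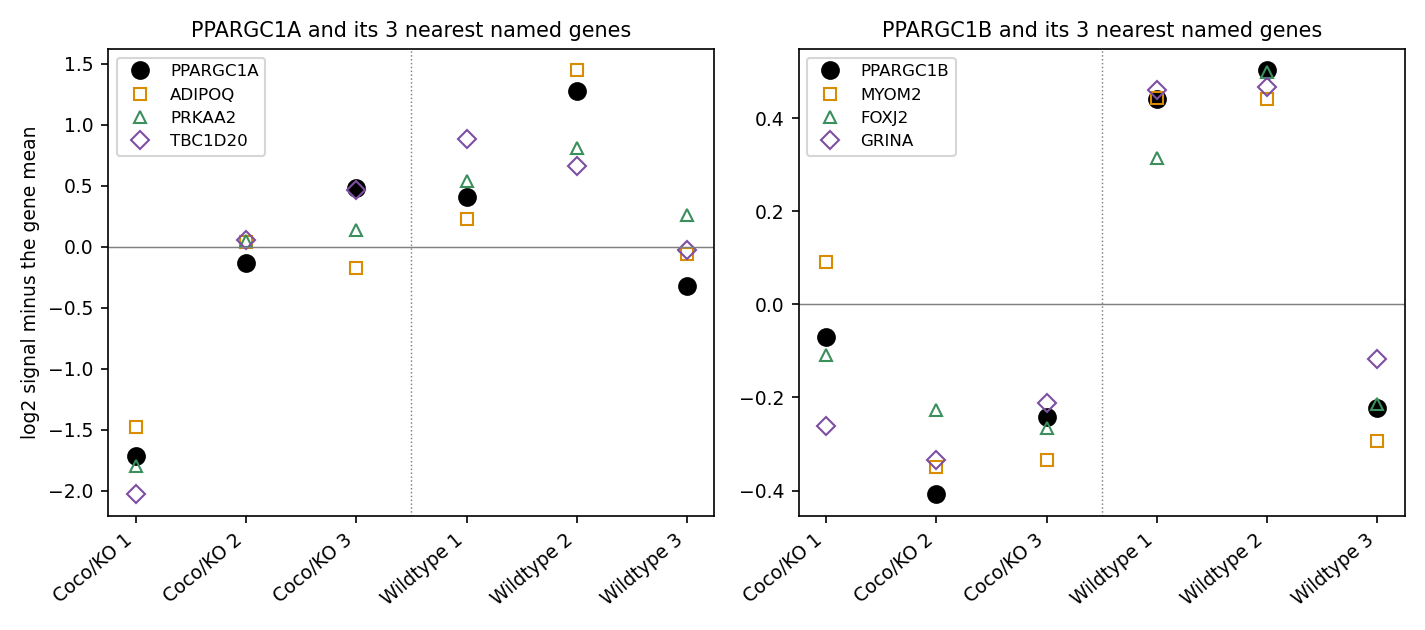
Log2 signal minus the gene's mean over the 6 arrays (vertical axis) for Ppargc1a and its 3 nearest named genes (left panel) and for Ppargc1b and its 3 (right panel), with Coco/KO arrays left of the dotted line and Wildtype arrays right of it. In the left panel all 4 genes are lowest on Coco/KO 1, and in the right panel all 4 are highest on Wildtype 1 and 2.

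The summed fat cell markers were lowest and highest on the same arrays as Ppargc1a. All 7 tested adipocyte markers had a lower mean in Coco/KO muscle, with a median log2 difference of -0.76 (-0.47 without Coco/KO 1). Of these 0 passed the threshold in limma. At an unadjusted p under 0.05 there were 3, beside 8.19% of all tested rows, and 0 without Coco/KO 1. The summed signal of the 10 adipocyte markers was 6748 to 10898 in Coco/KO and 11807 to 29812 in Wildtype arrays, lowest on Coco/KO 1 and highest on Wildtype 2. Bright rows weigh most in this sum, and it includes Adipoq, picked above for its likeness to Ppargc1a. Plin1 was detected on no array. In whole muscle, fewer cells of a type and less RNA per cell cannot be told apart, and the part of fat cells in the differences of Ppargc1a, Ppargc1b or Pparg was not tested. Macrophage markers, which can also carry Pparg, had a summed signal of 2365, 2114 and 6499 on Coco/KO arrays 1, 2 and 3. On the Wildtype arrays the sum was 1507 to 2045. All 8 tested macrophage markers had a higher Coco/KO mean (median log2 difference 0.67). None passed, and 3 had an unadjusted p under 0.05, beside the same 8.19% of all tested rows. Without Coco/KO 1 the median was 0.83, with 6 at an unadjusted p under 0.05, and the Coco/KO 3 array, with the highest sum, stayed in that fit. The share over all rows was not counted for that fit. Ptprc was detected on no array. Of the 5 brown fat markers Ucp1, Elovl3 and Prdm16 were not detected on any array. Cidea (0.50, limma adjusted p = 0.505, unadjusted p = 0.0261, groups not overlapping) and Cox8b (0.11) were detected on all 6. Their median was 0.31, over only 2 genes. Cox8b had log2 means of 15.32 in Coco/KO and 15.21 in Wildtype, and which cells carry these 2 RNAs was not tested. The endothelial markers had a median of -0.02 over 4 tested genes, 2 higher and 2 lower, but of -0.29 with all 4 lower without Coco/KO 1. The fibroblast markers had a median of 0.20 over 4. In both lists 0 passed in limma, and 0 at an unadjusted p under 0.05.

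Fibre type markers bear on Ppargc1a because it is known to be higher in slow fibres. The slow fibre markers had a median log2 difference of 0.04, with 6 of 7 higher in Coco/KO. The fast fibre markers had one of -0.16, with 7 of 7 lower, beside 50.1% of all rows lower. The slow fibre marker Myl2 had a Coco/KO log2 mean of 15.68 with an SD of 0. Whether rows this bright can show a difference was not tested. No marker of either list passed the threshold in limma. In each list 1 had an unadjusted p under 0.05, beside 8.19% of all tested rows. The general muscle markers had a median of 0.05, with 4 of 6 higher. Without Coco/KO 1 the medians were 0.03 for slow fibre, -0.24 for fast fibre and 0.00076 for general muscle markers.

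Genes around and below the regulators were then counted. Of the 91 tested genes in the 6 lists, 1 passed the threshold, where 0.143% of all tested rows did. Counts at an unadjusted p under 0.05 in these lists stand beside 8.19% of all tested rows in the limma fit to all 6 arrays. Among coactivator partners, corepressors and upstream regulators, 15 of 24 genes were tested, 9 lower and 6 higher in Coco/KO muscle, with a median log2 difference of -0.04 beside -0.00029 over all tested rows. The median was -0.11 without Coco/KO 1, -0.24 over genes detected on all 6 arrays and -0.21 over genes with a signal above 50 on at least 3. The lowest p-values belonged to Prkaa2, to the muscle factor Mef2c (-0.89, SE 0.42), to the corepressor Nrip1 (-0.75, SE 0.39) and to Pprc1, the third PGC-1 family member (0.46, SE 0.27). Limma adjusted p-values of these 4 lay between 0.602 and 0.731. Without Coco/KO 1 Mef2c was -0.34, Prkaa2 -0.44, Nrip1 -0.56 and Pprc1 0.47. At an unadjusted p under 0.05 only Prkaa2 passed in this list.

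Dimer partners and related factors were lower in Coco/KO in all 6 tested genes of 10, with a median of -0.09, and in 5 of the 6 without Coco/KO 1. The median depended on which genes entered, at -0.35 with detection on all 6 arrays, -0.18 with a signal above 50 and -0.03 with no filter, and it was -0.02 with modelled background. None passed in limma. The clock receptor Nr1d1 led (-0.57, SE 0.15, limma adjusted p = 0.330), with no overlap of the groups and the only unadjusted p under 0.05, and was followed by the thyroid hormone receptor Thra (-0.24) and the retinoid X receptors Rxrg (-0.12) and Rxrb (-0.05). Without Coco/KO 1 Thra was -0.41, Rxrg -0.03 and Rxrb 0.14.

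PPAR-linked lipid genes were lower in Coco/KO in 19 of 23 tested genes of a list of 30, beside 50.1% of all rows, with a median log2 difference of -0.20 (18 of 23 and -0.13 without Coco/KO 1). With chip position as a covariate the median was -0.07, and with modelled background -0.12. The 1 gene that passed was Slc25a20, the carnitine and acylcarnitine carrier, detected on 0 of 3 Coco/KO and 3 of 3 Wildtype arrays. The log2 difference of Slc25a20 was -1.66 (SE 0.19, limma adjusted p = 0.0155), with Coco/KO values that were not detected. With these values raised to the lowest detected value of their array, the normalized signal was 2.43-fold lower in Coco/KO. That fold was not itself tested, and it is no strict lower bound, since other rows with signals above that value also went undetected. The row met the detection filter through its Wildtype arrays alone. In the fit without a filter its limma adjusted p was 0.0134. No pathway gene was called in 8 of the 17 alternatives, namely modelled background, an offset of 50, median scaling, detection on all 6 arrays, and without Coco/KO 2, Coco/KO 3, Wildtype 2 or Wildtype 3. The next genes were Acsl1, an acyl-CoA synthetase (-1.01, SE 0.35), the dehydrogenase Acadm (-0.34, SE 0.13) and Pdk4, the kinase that spares glucose (-0.51, SE 0.29), with adjusted p-values between 0.465 and 0.708. Acsl1 was -0.61 and Pdk4 -0.21 without Coco/KO 1. That oxidation genes lay lower in these libraries was known when the list was drawn up, so the count is no independent evidence.

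ERR- and NRF1-linked respiratory and citrate cycle genes were lower in 20 of 24 tested genes of a list of 28, beside 50.1% of all rows. The median was -0.08 (21 of 24 and -0.15 without Coco/KO 1), and none passed. This list too was drawn up with earlier results of these data known, so the count is no independent evidence. Uqcrc1, a core subunit of complex III (-0.49, SE 0.18, limma adjusted p = 0.5003), had no overlap of the groups and was the 1 gene with an unadjusted p under 0.05. Suclg1 of the citrate cycle (-0.30) and the complex III parts Uqcrb (-0.29) and Cyc1 (-0.19) followed, and Suclg1 and Cyc1 also had no overlap. These 3 of 24 genes without overlap stand beside 12.7% of all tested rows. Uqcrb was -0.17 without Coco/KO 1, while Uqcrc1 was -0.65, Suclg1 -0.42 and Cyc1 -0.18. In that fit 3 of the 24 had an unadjusted p under 0.05 in limma, and the share over all rows was not counted for it.

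Genes of mitochondrial DNA maintenance, import and fusion had 9 of 13 tested genes lower, of a list of 15, and a median of -0.05. None passed in limma. The 1 with an unadjusted p under 0.05 was Tfb1m, a methyltransferase of the mitochondrial ribosome, with a higher Coco/KO mean (0.44, SE 0.15, limma adjusted p = 0.455) with no overlap of the groups. The DNA-binding protein Ssbp1 (0.23), the fusion protein Mfn2 (-0.28) and the import receptor Tomm70a (-0.17) followed. Without Coco/KO 1 Mfn2 was -0.55 and Tomm70a -0.07.

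Other PGC-1 responsive muscle genes went both ways, 5 of 10 higher and 5 lower, with a median of 0.02 (-0.03 without Coco/KO 1). Vegfa, the angiogenic growth factor, had log2 means of 11.40 ± 0.14 in Coco/KO and 12.14 ± 0.14 in Wildtype muscle (SD, n = 3 each), a difference of -0.74 (SE 0.15, limma adjusted p = 0.213). Slc2a4, the insulin-responsive glucose transporter, differed by -0.61 (SE 0.22) and the slow troponin Tnni1 by 0.91 (SE 0.21), with adjusted p-values of 0.482 and 0.281. Fndc5, the precursor of irisin, differed by 0.45 (SE 0.28). Without Coco/KO 1 Fndc5 was 0.17, Slc2a4 -0.42, Tnni1 0.87 and Vegfa -0.81. The groups did not overlap in 4 of the 10, beside 12.7% of all tested rows, with Vegfa and Slc2a4 lower and Tnni1 and the peroxidase Gpx1 (0.20) higher. None passed, and Vegfa, Slc2a4 and Tnni1 had an unadjusted p under 0.05. Gpx1 is named after its values were seen.

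**Figure D5:**
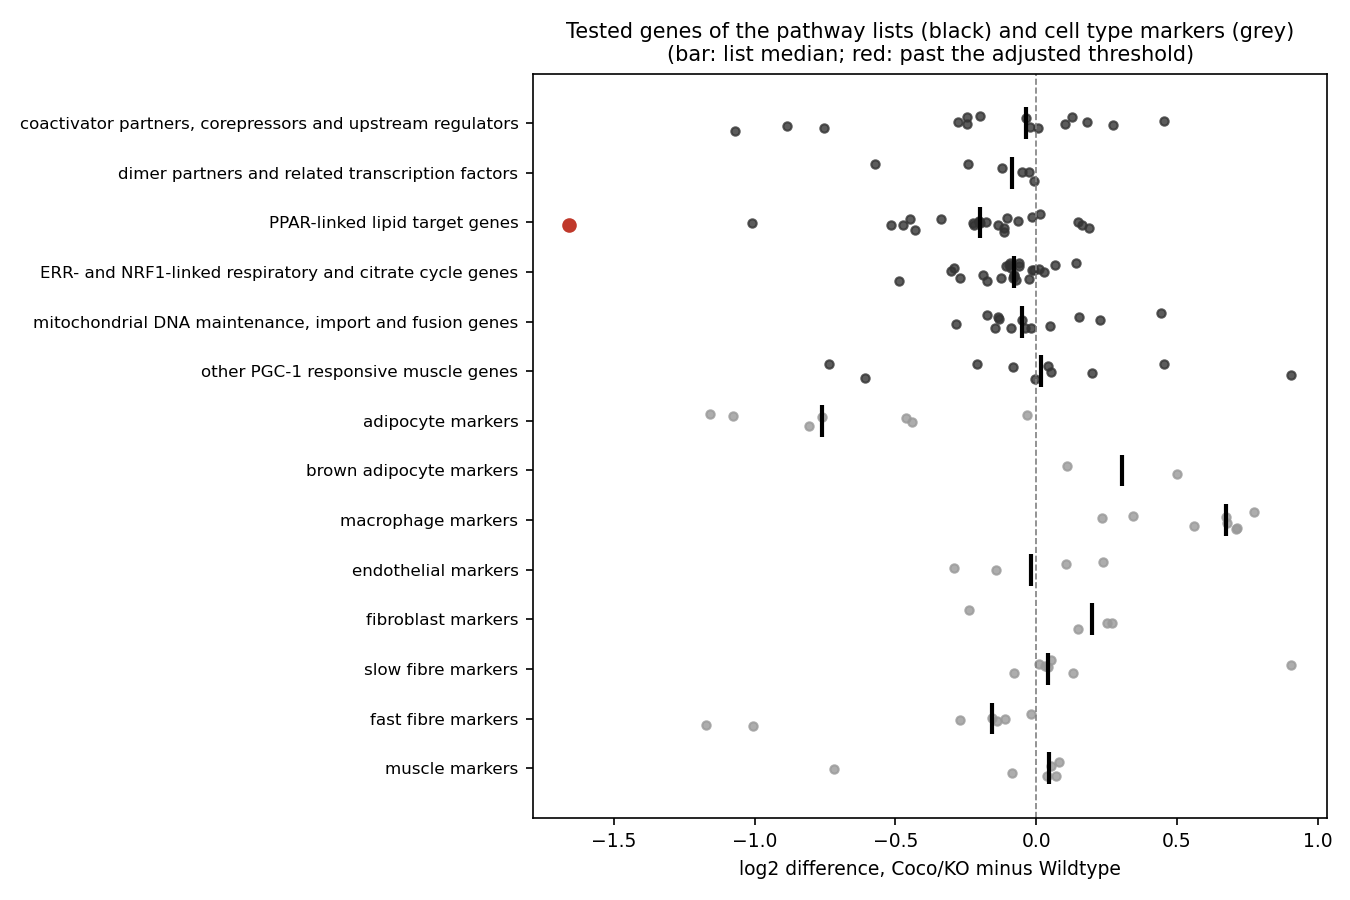
Log2 difference between Coco/KO and Wildtype muscle (horizontal axis) of each tested gene of the 6 pathway lists (black points) and 8 cell type marker lists (grey points), with list medians as bars. The 1 gene past the adjusted threshold, Slc25a20, is the red point, and the adipocyte markers lie to the left of 0 and the macrophage markers to the right.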

How the data were processed

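Total RNA was hybridised to an Illumina Mouse-6 v1.1 beadchip. The deposited table holds BeadStudio 3.2.6 intensity values with no normalization, per the file headers, with a bead SD and a bead number per row. The detection score, a fraction from 0 to 1, was computed by the authors' BeadStudio run, per the file headers, and is 1 minus the detection p. Between 30.1% and 32.9% of values per array were at or below 0, as after background subtraction. For the tests 58.7 was added to each intensity (42.7 to bring the lowest value to 1, and an offset of 16), log2 was taken and arrays were quantile normalized. Rows were kept where the detection p was below 0.05 in 3 or more of the 6 arrays, and Coco/KO was compared with Wildtype in limma 3.58.1 (R 4.3.3), with Benjamini-Hochberg adjustment over all 12611 rows and a threshold of 0.05. The fit was tested on simulated data. Motifs and figures used Python 3.11.15. Signals of different rows were not compared. The members and the gene lists were chosen with earlier results of these data known. Named were all members, Acta1 and Actc1, up to 4 genes of lowest p per pathway list, and the 3 nearest profiles of Ppargc1a and of the tested member of lowest p. Other genes named from the cell type marker lists, and Gpx1, fall outside this rule. The authors' value table of 46632 probes was not used, since its rows are not named. The number of arrays limits the precision.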

Additional observations from a re-analysis of the deposited data

How the results depend on the processing

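No regulator passed the threshold under any of the alternatives that gave it a value. These were 17 for Ppargc1a, Ppargc1b, Esrra, Esrrb, Nrf1 and Tfam and 15 for Ppara, while Ppard and Esrrg had values in 2 (no filter and signals above 50) and Pparg in 1 (no filter). The alternatives included other backgrounds, offsets, scalings, filters and variance models, chip position as a covariate, each array left out, and a filter on signals above 50, which was chosen after seeing the data. Ppargc1a stayed lower in Coco/KO throughout, between -1.37 and -0.28 (limma adjusted p between 0.536 and 1.000), and was -0.56 with chip position. Ppargc1b lay between -0.71 and -0.17, Nrf1 between -0.16 and -0.0007, and Tfam between 0.03 and 0.23. Differences near 0 changed sign. Esrra was -0.02 with array weights and -0.11 with chip position, and between -0.20 and 0.22 with 1 array left out. Ppara was 0.0017 with modelled background, 0.07 with array weights and 0.07 with chip position, and between -0.22 and 0.27 with 1 array left out. Esrrb lay between -0.09 and 0.30 with 1 array left out. Ppara has no value where detection on all 6 arrays or a signal above 50 was required. List medians also moved, in the coactivator partners to between -0.24 and -0.21 under these 2 filters, and in the other PGC-1 responsive genes to -0.06 without Wildtype 3. The count of all rows called, 18, was 2 with modelled background, 9 with an offset of 50, 5 with median scaling, 9 with detection on all 6 arrays and 11 with chip position. With 1 array left out it lay between 5 (without Coco/KO 3) and 29 (without Coco/KO 1). The single pathway gene called, Slc25a20, left 0 with modelled background, an offset of 50, median scaling and detection on all 6 arrays, where it was not tested, and between 0 and 1 with 1 array left out (0 without Coco/KO 2, Coco/KO 3, Wildtype 2 or Wildtype 3). Apart from that filter the cause was not tested. Same-numbered arrays had correlations of -0.045, -0.287 and 0.091 between their deviations, so the numbers were not taken as pairs. With the replicate number as a block, 13 rows were called, and Ppargc1a stayed at -0.91 (limma adjusted p = 0.796). The value-table alternative was not run.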
